A study of Rattus norvegicus with 10 samples.

Results

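Some genes of the lens epithelium were low in the first hours after a rise in FGF2 and high from 12 hr on. They were picked by their values: a probe set with 1 gene symbol was taken when its mean over 2 and 4 hr lay at least 0.5 log2 below the mean of 0 hr, and its mean over 12 and 24 hr at least 0.5 above it. This course was found in 85 of 20826 probe sets with 1 gene symbol, of 73 of 14217 genes. Another 3 probe sets that met both thresholds were left out by gene name, and the 88 together make 0.423% of the probe sets with 1 symbol. The opposite course, high early and low late, was met by 106 probe sets of 93 genes. Because the early and late differences from 0 hr chose the members, they are given below as a description and are not tested.

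The samples were explants of the lens epithelium of 3 day old rats, 6 explants to an assay. All of them were grown overnight in 5 ng/mL FGF2, which is the 0 hr group, and the dose was then raised to 100 ng/mL for 2, 4, 12 or 24 hr in the other groups. Total RNA of 2 biological samples per time was amplified and measured on Affymetrix rat arrays, 10 arrays in all, each with 31042 probe sets beside 57 controls. A probe set is a group of short probes that are read together. Its value here is the log2 of the deposited intensity, so that a difference of 1 is a 2-fold change. No array held explants kept at the low dose for the same hours, so the high dose and the time in culture cannot be told apart, and explants of several rats share a sample. The names of the arrays in the study carry numbers, and those of 0 hr, of the early and of the late arrays stand apart from each other. What the numbers stand for is not stated, and in a value set against 0 hr the phase and this numbering cannot be told apart.

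A growth factor first acts through proteins the cell already holds, and later through proteins whose genes were switched in the first hours. In lens epithelium a high dose of FGF drives the cells out of the cycle and into fiber differentiation: they elongate, extend their membranes and fill with crystallins. A gene that is low early and high late changes its direction between these phases, and an average over all treated times would hide much of its course. The explants carried the markers of their tissue. Of the lens epithelial markers, 7 of 7 on the array were brighter than the median probe set, and of the fiber markers 9 of 10, against 0 of 9 for macrophages, 0 of 6 for pigmented and ciliary epithelium and 0 of 5 for retina. The summed intensity of the fiber markers was 28902.5 to 29010.2 at 0 hr. It was 20968.9 to 28203.7 at the early and 19609.5 to 27362.1 at the late times, so no later array exceeded those of 0 hr. Of the endothelial markers 3 of 7 were brighter than the median probe set on the mean of all arrays. At 0 hr the median probe set stood at 6.64 log2. There Tek read 9.66 and 10.04, Kdr 7.83 and 8.20, and Emcn 7.87 and 8.14. Cldn5 read 7.53 and 7.84, Vwf 7.20 and 7.20, Tie1 5.67 and 6.17, and Pecam1 4.55 and 4.90. Pecam1 stood at 4.11 to 4.90 on all arrays. Markers of fibroblasts and mesenchyme were brighter in 4 of 8 cases. Their summed intensity was 4131 to 5054 at 0 hr, 6099 to 7436 over 2 and 4 hr, and 3033 to 4205 over 12 and 24 hr, and Tagln and Col1a2 made up most of it. The summed endothelial markers were at 1673 to 2108 at 0 hr, 1302 to 1880 at the early and 961 to 1237 at the late times. In explants of mixed cells, fewer cells of a type and less RNA per cell cannot be told apart, and the part of these cells in the members' course was not tested.

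The members were of ordinary brightness by their median, but few of them were dim. At 0 hr their median log2 level was 7.73, with a lower quartile of 7.04 and a range of 4.67 to 11.21. Over all probe sets with 1 symbol the median was 7.39 and the lower quartile 5.25. The median early difference of the members from 0 hr was −0.73 and their median late difference 0.85, against −0.01 and 0.02 over all probe sets. Early differences ran from −1.97 to −0.50 and late ones from 0.52 to 2.44. The late difference was larger than the early one in 49 members and smaller in 36. At least 1 log2 was reached on the late side by 30 members, on the early side by 17, and on both by 6. The difference between the late and the early mean ran from 1.07 to 3.36, with a median of 1.66.

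**Figure D1:**
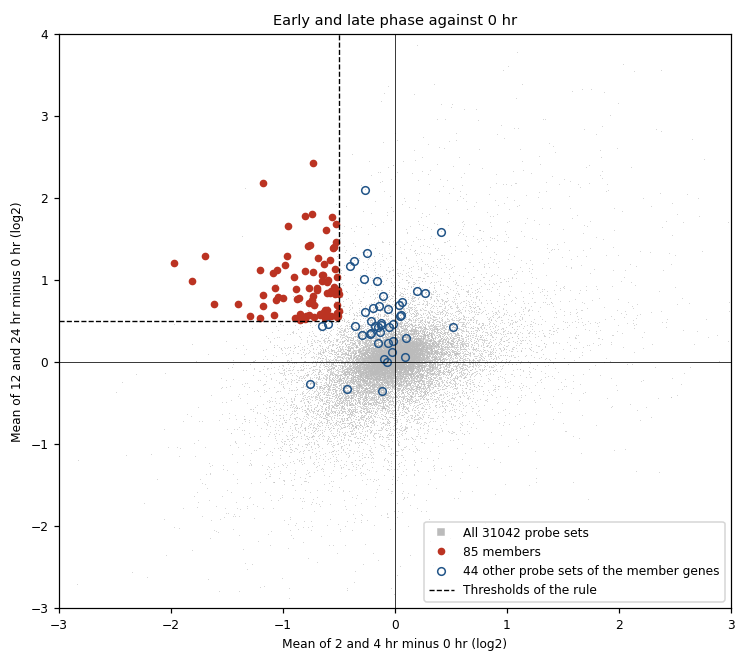
Each point is a probe set, with its mean over 2 and 4 hr minus 0 hr on the x axis and its mean over 12 and 24 hr minus 0 hr on the y axis, both log2. The 85 members (filled) lie in the corner that the dashed thresholds cut off, and the 44 other probe sets of the same genes (open) lie outside it, since any inside would be a member; 49 probe sets that are not members lie beyond the axes.

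All 4 early arrays lay below and all 4 late arrays above both 0 hr arrays in 65 of the 85 members, a separation seen in 2.79% of all probe sets; the rule used these same arrays, so nothing is read from the comparison. On the first 4 hr array, 10 members were not below both 0 hr arrays, against 1 member on each of the other early arrays. The median member stood at −0.70 and −0.78 from the 0 hr mean on the 2 hr arrays, −0.60 and −0.87 on the 4 hr arrays, 0.75 and 0.80 at 12 hr, and 1.08 and 0.86 at 24 hr. The second array was thus the lower one at both early times. The median absolute difference between replicates was 0.31 at 2 hr and 0.34 at 4 hr for the members, against 0.16 and 0.15 for all probe sets, and 0.10, 0.16 and 0.27 at 0, 12 and 24 hr.

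Both controls of RNA quality were lower on the early arrays than at 0 hr, but only that of Gapdh set them apart from all others. The array carries probes at the 5′ and 3′ ends of Actb and Gapdh, and a lower 5′ over 3′ signal is known from shortened or partly copied RNA. The log2 ratio of Gapdh was −0.05 and 0.00 at 0 hr, −0.21 and −0.27 at 2 hr, −0.17 and −0.30 at 4 hr, −0.06 and −0.12 at 12 hr, and −0.13 and −0.14 at 24 hr. It was lower on all 4 early arrays than on any other, and lowest on the second ones, as the members were. The log2 ratio of Actb was −1.12 and −1.21 at 0 hr, −1.68 and −2.13 at 2 hr, −1.37 and −2.08 at 4 hr, −1.30 and −1.43 at 12 hr, and −1.75 and −1.88 at 24 hr. It too was lowest on the second 2 and 4 hr arrays. At 24 hr, unlike that of Gapdh, it was below that of the first 2 and 4 hr arrays while the members were high. On the second 12 hr array it was also below that of the first 4 hr array. The part of RNA quality in the early values was not tested. Without any single array 79 to 102 probe sets met the rule, and 42 of the 85 members, of 37 genes, met it whichever array was left out. Only 11 members lay past both thresholds on every early and late array, those of Igfbp3 (both probe sets), Atp1b1, Ephx1, Mpv17l, Id2 (1 of 2), Fam222a, Stt3a, Rab3a, Hnrnpa1 and Dipk1b (1 of 2).

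**Figure D2:**
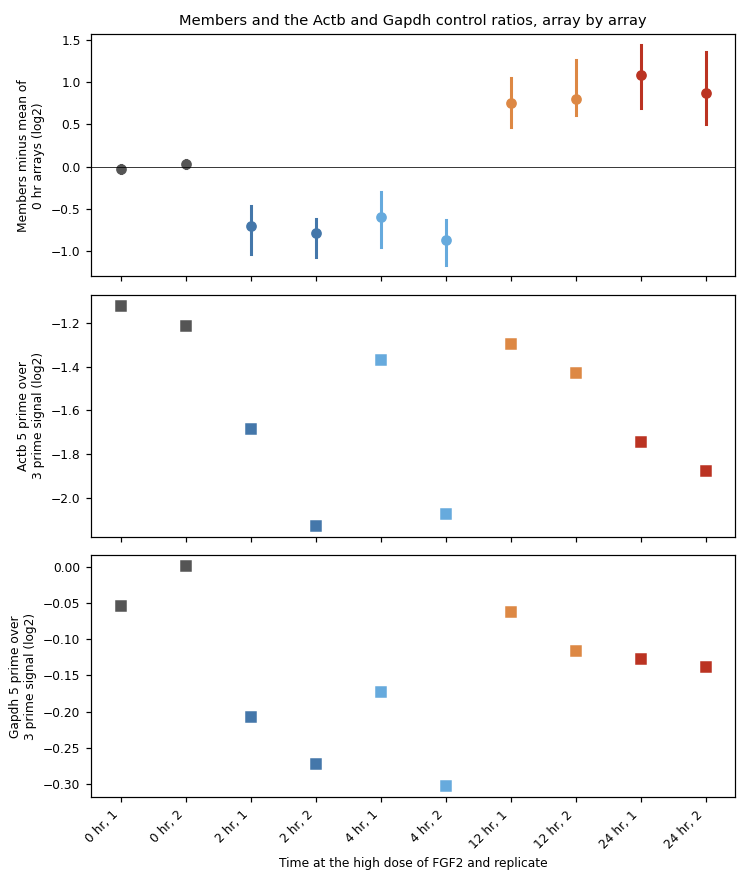
The upper panel gives, for each array, the median member (point) and the quartiles (bar) as log2 difference from the mean of the 0 hr arrays; the middle and lower panels give the log2 ratio of the 5′ to the 3′ signal of the Actb and the Gapdh control. The median member lay between −0.87 and −0.60 on the early arrays and between 0.75 and 1.08 on the late arrays, both ratios were lowest on the second 2 and 4 hr arrays, and that of Gapdh was lower on all 4 early arrays than on the others.

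**Figure D3:**
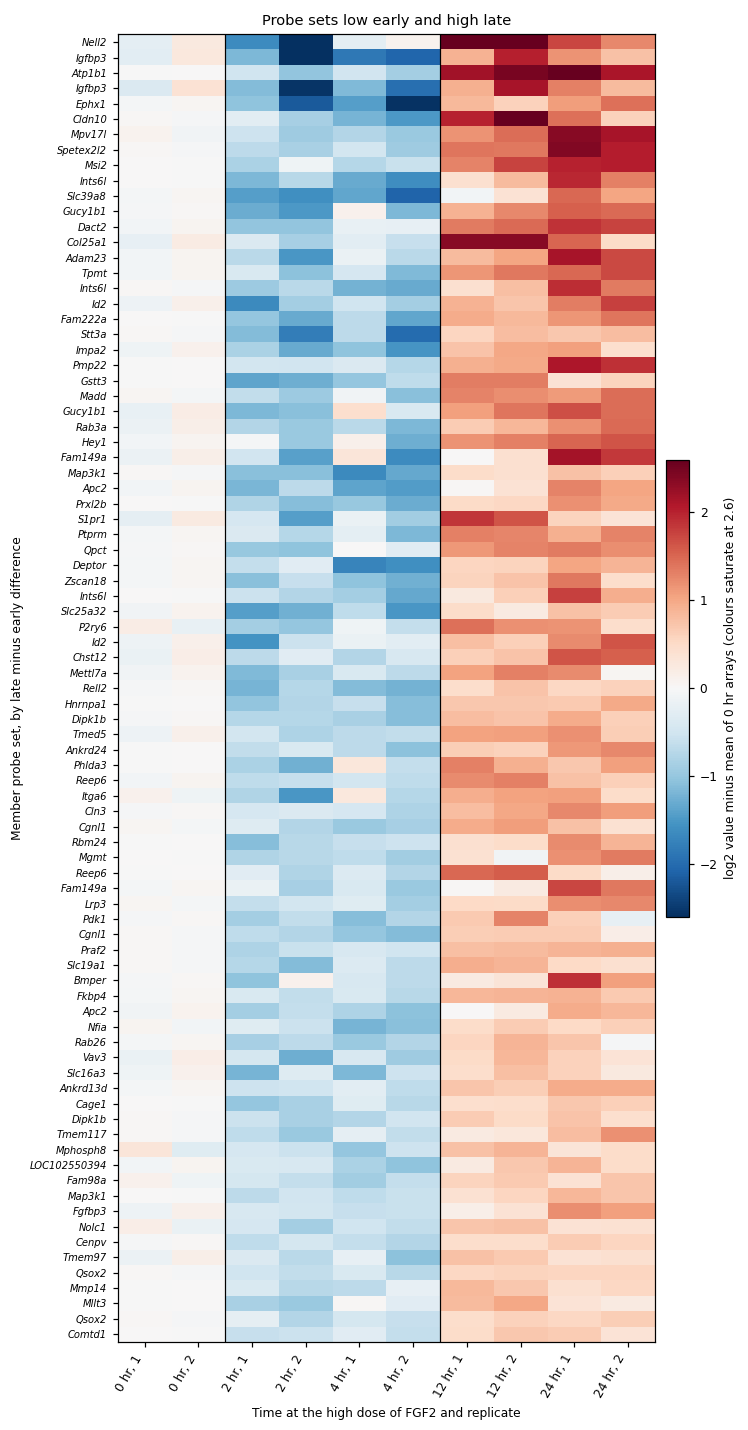
Each row is a member probe set and each column an array; the colour is the log2 value minus the mean of the 0 hr arrays, blue below and red above. Rows are ordered by late minus early difference, from 3.36 for Nell2 to 1.07 for Comtd1, and the paler cells of the first 4 hr array are the members that were near their 0 hr level there.

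Promoters were looked at for letters that members share. RefSeq windows from 250 bases before to 50 after the start (GRCr8) were at hand for 56 of the 73 genes. The Sp motif GGGCGG was in 64.3% of them, on either strand, against 34.9% of all 27457 promoters and 57.5% of the 11700 promoters of genes on the array. The NF-Y motif CCAAT was in 41.1%, against 37.7% and 37.3%, and the E-box CACGTG in 10.7%, against 6.65% and 8.94%. The Ets core CGGAAG was in 14.3%, against 17.4% and 27.0%, and the short site of Nfi factors TTGGCA in 1.79%, against 13.6% and 11.7%. TATAAA was in 1.79%, against 14.3% and 8.45%. Member promoters held a median of 64.8% G and C, against 60% for genes on the array and 52.3% for all. Shares of the other 6 motifs searched, namely the core CRE site (TGACGT) and the motifs of AP-1 (TGANTCA), FoxO (GTAAACA), Maf (TGCTGAC), Sox (CATTGTT) and Rbpj (GTGGGAA), lay between 1.79% and 7.14% and within 4 percentage points of both backgrounds. A match is only a run of letters and says nothing of binding. Some windows of 30 bases upstream of the start are shown for members whose levels are described below, to place the letters counted here. Capitals mark CCAAT or its reverse complement ATTGG in the first 4 and CACGTG in the last 2. Id2 chr6:47471074-47471103 (minus strand), Id2 chr6:47471157-47471186 (minus strand), Gucy1b1 chr2:169697043-169697072 (minus strand), Gstt3 chr20:12874557-12874586 (plus strand), Mgmt chr1:201140792-201140821 (plus strand) and Lrp3 chr1:96996110-96996139 (minus strand) are the windows, each read 5′ to 3′ on the strand of its gene.
Id2, proximal: ggcacccctcccaCCAATggcgattcaggg
Id2, distal: ccaccccacgggcATTGGctgcgaacgcgg
Gucy1b1: ggctccacttgccATTGGttgagaagaggt
Gstt3: ttctcctgaacatCCAATgggagggaagac
Mgmt: tcccgcccccatCACGTGcaccagcctgcg
Lrp3: cggcgggcgcgtCACGTGgctggcgcggcg

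For the description, the 73 genes were put in groups by what their products are known to do; this was done after their values were seen and serves only for order. The first group, 10 genes for secreted, matrix and growth factor binding proteins, held the widest differences. Nell2, which encodes a secreted glycoprotein best known from neurons, had the largest difference between phases. Its log2 values were 6.96 and 7.46 at 0 hr, 5.58 and 4.31 at 2 hr, 6.95 and 7.31 at 4 hr, 9.89 and 10.29 at 12 hr, and 8.94 and 8.46 at 24 hr. It was low at 2 hr only, and both late times lay above every earlier array; the late minus early difference was 3.36. Igfbp3 encodes the binding protein that carries insulin-like growth factors outside the cell. Its first probe set read 9.14 and 9.67 at 0 hr, 8.23 and 6.58 at 2 hr, 7.55 and 7.34 at 4 hr, 10.30 and 11.41 at 12 hr, and 10.57 and 10.16 at 24 hr and its second 8.01 and 8.78 at 0 hr, 7.26 and 5.85 at 2 hr, 7.24 and 6.44 at 4 hr, 9.32 and 10.54 at 12 hr, and 9.70 and 9.22 at 24 hr. Both probe sets were low on all 4 early arrays and high on all 4 late ones, with the deepest early values on the second 2 hr array. The early difference of the first was −1.97 (standard error 0.44, 4 against 2 arrays), the lowest among the members, and the late one 1.21. Adam23, which encodes an adhesion protein without protease activity, differed by 2.20 between phases, and the membrane collagen gene Col25a1 by 2.22. The other probe sets of Adam23 were near 0 hr early, as given below. Fgfbp3, whose product binds FGF, and Bmper, whose product binds BMP, had late differences of 0.70 and 0.88; Bmper was at 7.74 on the second 2 hr array, above its 0 hr values of 7.60 and 7.67. Rell2, a relative of a receptor of the tumor necrosis factor family, stood at −1.08 early and 0.58 late. Qpct, which encodes a cyclase of peptide ends, stood at −0.58 early and 1.24 late, and the membrane-bound metalloproteinase gene Mmp14, with an early difference of −0.50, was among the members nearest the threshold.

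**Figure D4:**
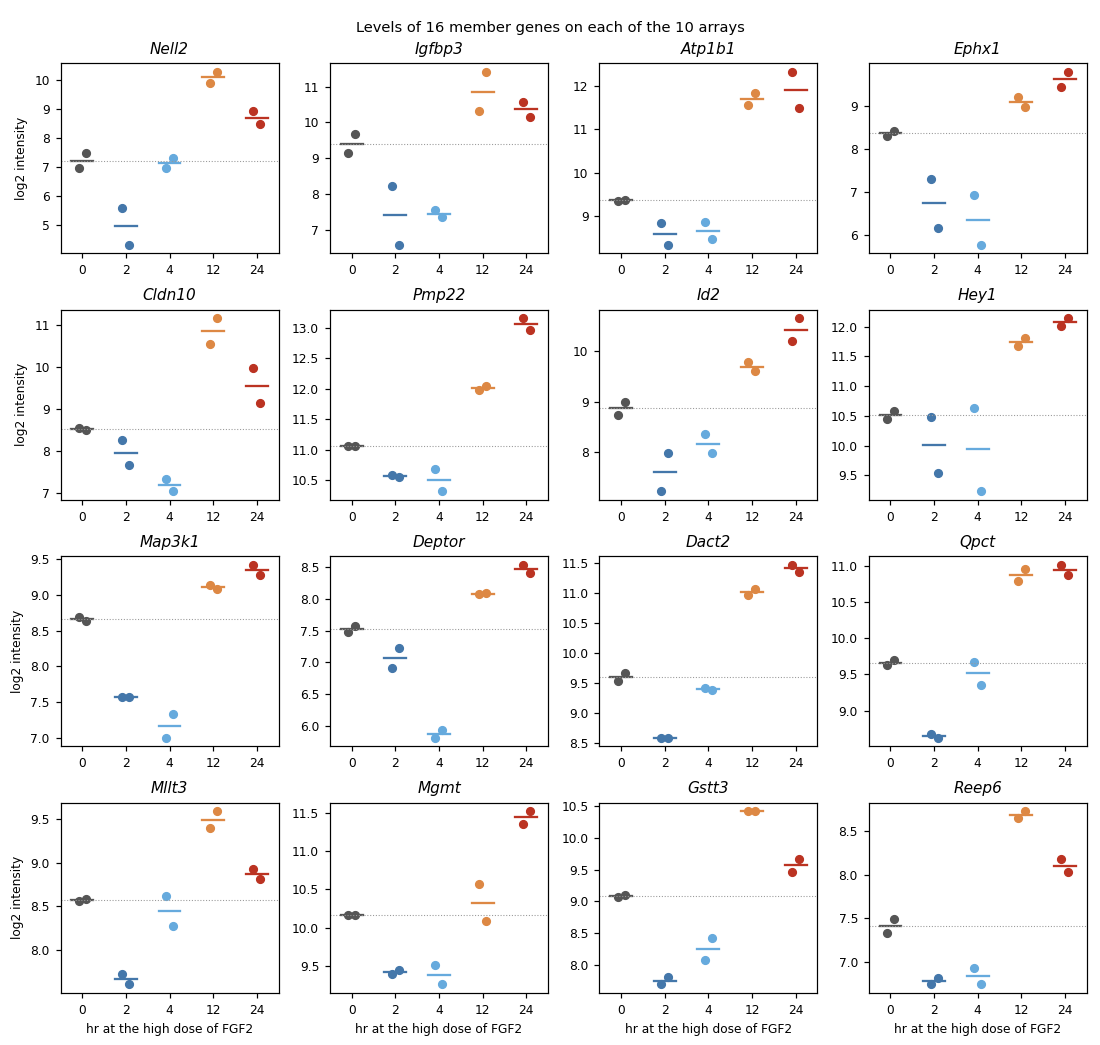
Log2 intensity on each of the 10 arrays for 16 member genes, with points for arrays, bars for the mean of each time and a dotted line at the mean of 0 hr. The panels of Nell2, Qpct and Mllt3 show values near the dotted line at 4 hr, those of Deptor and Cldn10 are lowest at 4 hr, and those of Cldn10, Gstt3 and Reep6 are higher at 12 than at 24 hr.

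Receptors and adhesion receptors made up 6 genes, with late differences of 0.87 to 1.40. Gucy1b1 encodes a subunit of the soluble guanylyl cyclase that senses nitric oxide. On its first probe set it read 7.67 and 7.73 at 0 hr, 6.40 and 6.21 at 2 hr, 7.80 and 6.53 at 4 hr, 8.60 and 8.96 at 12 hr, and 9.25 and 9.18 at 24 hr. It lay below 0 hr on 3 of 4 early arrays, and the first 4 hr array was above both 0 hr arrays. S1pr1, the receptor of sphingosine 1-phosphate, read 6.93 and 7.40 at 0 hr, 6.72 and 5.74 at 2 hr, 6.99 and 6.27 at 4 hr, 9.01 and 8.80 at 12 hr, and 7.75 and 7.52 at 24 hr. It was highest at 12 hr, and its first 4 hr array lay between those of 0 hr. The receptor of extracellular UDP, P2ry6, stood at −0.65 early and 1.06 late, the receptor phosphatase gene Ptprm at −0.63 and 1.20, and Lrp3, of the lipoprotein receptor family, at −0.57 and 0.87. Itga6, the integrin subunit that binds laminin, read 6.83 and 6.60 at 0 hr, 5.94 and 5.20 at 2 hr, 6.99 and 5.97 at 4 hr, 7.67 and 7.77 at 12 hr, and 7.78 and 7.19 at 24 hr. It exceeded 0 hr on the first 4 hr array, and its brighter probe set ran otherwise, as given below.

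Only 4 genes belonged to junctions and the cell membrane, but the highest late value was among them. Atp1b1 encodes the beta subunit of the sodium pump. Its values were 9.35 and 9.38 at 0 hr, 8.83 and 8.34 at 2 hr, 8.86 and 8.47 at 4 hr, 11.55 and 11.83 at 12 hr, and 12.32 and 11.49 at 24 hr. The groups did not overlap: every early array lay below, and every late array more than 2 log2 above, both 0 hr arrays, with a late difference of 2.44 (standard error 0.23). The tight junction gene Cldn10 read 8.55 and 8.50 at 0 hr, 8.26 and 7.65 at 2 hr, 7.33 and 7.03 at 4 hr, 10.53 and 11.15 at 12 hr, and 9.96 and 9.13 at 24 hr. It was highest at 12 hr and lowest at 4 hr, without overlap between phases. Pmp22, a membrane protein of myelin and epithelial junctions, was the brightest of the group, with 11.06 and 11.06 at 0 hr, 10.59 and 10.56 at 2 hr, 10.68 and 10.32 at 4 hr, 11.98 and 12.04 at 12 hr, and 13.15 and 12.96 at 24 hr. Its groups did not overlap, and its 24 hr arrays were the highest. Cgnl1, which encodes the junction protein paracingulin, stood at −0.73 and 0.81 on 1 probe set and at −0.89 and 0.53 on a brighter one.

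Signalling proteins inside the cell were encoded by 8 members. Map3k1, a kinase upstream of Jun kinase, read 8.70 and 8.63 at 0 hr, 7.57 and 7.57 at 2 hr, 7.0 and 7.33 at 4 hr, 9.13 and 9.08 at 12 hr, and 9.42 and 9.28 at 24 hr. Its early values were the lowest of this group at −1.30, with no overlap between phases, and a second probe set gave −0.60 and 0.63. Deptor, an inhibitor of the mTOR kinase, read 7.48 and 7.57 at 0 hr, 6.91 and 7.23 at 2 hr, 5.81 and 5.92 at 4 hr, 8.07 and 8.10 at 12 hr, and 8.54 and 8.41 at 24 hr. Its low was at 4 hr, when both arrays lay more than 1 below those of 0 hr. Dact2, which encodes a regulator of Wnt and TGF-beta signals, read 9.54 and 9.67 at 0 hr, 8.59 and 8.59 at 2 hr, 9.41 and 9.38 at 4 hr, 10.97 and 11.08 at 12 hr, and 11.48 and 11.36 at 24 hr. It was lowest at 2 hr and near its starting level at 4 hr, and rose further in the late phase. Late minus early differences were 1.96 for Madd, which acts on Rab proteins and death receptors, and 2.00 for Impa2, an inositol phosphatase. They were 1.86 for Apc2, a relative of the Wnt regulator Apc, 1.60 for Phlda3, an inhibitor of Akt under p53, and 1.34 for Vav3. The first 4 hr array of Phlda3, at 9.48, lay above its 0 hr values of 9.16 and 9.20.

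The largest group but one, with 13 genes, held factors of transcription, RNA and the nucleus. Id2, an inhibitor of basic helix-loop-helix factors and a known target of BMP signals, read 8.74 and 9.00 at 0 hr, 7.22 and 7.99 at 2 hr, 8.35 and 7.98 at 4 hr, 9.78 and 9.60 at 12 hr, and 10.20 and 10.65 at 24 hr on one probe set and 8.53 and 8.81 at 0 hr, 7.12 and 8.11 at 2 hr, 8.50 and 8.39 at 4 hr, 9.45 and 9.29 at 12 hr, and 9.90 and 10.30 at 24 hr on the other. Both placed its low at 2 hr and its high at 24 hr. Hey1, a repressor under Notch, read 10.44 and 10.58 at 0 hr, 10.47 and 9.53 at 2 hr, 10.64 and 9.23 at 4 hr, 11.68 and 11.82 at 12 hr, and 12.02 and 12.14 at 24 hr. Its first 2 and 4 hr arrays were at the level of 0 hr and only the second ones were low, so its early difference of −0.54 (standard error 0.36) rested on those 2 arrays. Nfia, a nuclear factor I gene, read 10.12 and 9.96 at 0 hr, 9.72 and 9.49 at 2 hr, 8.84 and 8.95 at 4 hr, 10.51 and 10.69 at 12 hr, and 10.56 and 10.66 at 24 hr. All early arrays lay below those of 0 hr, and the 4 hr arrays by more than 1. Among genes for RNA-binding proteins, Rbm24 stood at −0.74 early and 0.75 late, Msi2 at −0.56 and 1.78, and Hnrnpa1 at −0.88 and 0.77. Ints6l, a relative of a subunit of the Integrator complex, had 3 member probe sets, with late minus early differences of 2.33, 2.17 and 1.78. Mllt3, a reader of modified histones, read 8.56 and 8.58 at 0 hr, 7.72 and 7.61 at 2 hr, 8.61 and 8.27 at 4 hr, 9.40 and 9.59 at 12 hr, and 8.93 and 8.81 at 24 hr. Smaller differences between phases were those of Zscan18 (1.78), Mphosph8 (1.25), Fam98a (1.24), Nolc1 (1.18) and Cenpv (1.17).

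Detoxification, metabolism and transport formed the largest group, with 14 genes. Ephx1, the epoxide hydrolase of microsomes, read 8.30 and 8.42 at 0 hr, 7.31 and 6.17 at 2 hr, 6.92 and 5.78 at 4 hr, 9.21 and 8.96 at 12 hr, and 9.44 and 9.79 at 24 hr. All early arrays lay below and all late arrays above both 0 hr arrays, and the second arrays of 2 and 4 hr were the lowest. Genes for methyl transfer and glutathione were in this group too. Tpmt, which methylates thiopurines, differed by 2.19 between phases; Mgmt, which repairs methylated guanine in DNA, by 1.48; and the glutathione transferase Gstt3 by 1.98. Mpv17l, tied to reactive oxygen in mitochondria and peroxisomes, stood at −0.80 and 1.79. Slc39a8 encodes a transporter of zinc and manganese, and read 6.31 and 6.42 at 0 hr, 4.92 and 4.77 at 2 hr, 5.02 and 4.27 at 4 hr, 6.29 and 6.74 at 12 hr, and 7.86 and 7.39 at 24 hr. It was more than 1 below 0 hr on every early array, was at the 0 hr level on the first 12 hr array and was clearly above at 24 hr only. Both members of a pathway, the folate carrier of the cell surface Slc19a1 and that of mitochondria Slc25a32, were low early at −0.73 and −1.21, and stood at 0.69 and 0.53 late. Pdk1, the kinase that curbs pyruvate use, and Slc16a3, the exporter of lactate, both of them hypoxia genes, stood at −0.85 and −0.81 early and 0.59 and 0.52 late. On the second 24 hr array Pdk1 was below both 0 hr arrays, at 8.45. The remaining members of this group were Prxl2b (1.84 between phases), Mettl7a (1.68), Tmem97 (1.14) and Comtd1 (1.07).

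The secretory pathway, vesicles and protein handling gave 10 genes. Stt3a, a catalytic subunit of the enzyme that attaches sugars to new proteins, read 7.36 and 7.30 at 0 hr, 6.21 and 5.53 at 2 hr, 6.64 and 5.34 at 4 hr, 7.89 and 8.14 at 12 hr, and 8.04 and 8.13 at 24 hr. It was low on each early array and lowest on the second ones. Its brighter probe set was nearly flat, as given below. Rab3a, a Rab protein of regulated secretion, read 6.76 and 7.05 at 0 hr, 6.15 and 5.93 at 2 hr, 6.20 and 5.73 at 4 hr, 7.57 and 7.77 at 12 hr, and 8.09 and 8.37 at 24 hr, with no overlap between early, 0 hr and late arrays. Rab26 had smaller differences (−0.82 and 0.53), and the lysosomal gene Cln3 stood at −0.51 and 1.03. Reep6, which shapes the endoplasmic reticulum, had a late minus early difference of 1.59 on its brighter and 1.47 on its dimmer probe set. Chst12, a sulfotransferase for chondroitin, differed by 1.68, Tmed5 by 1.64, Praf2 by 1.43, Fkbp4, a partner of Hsp90, by 1.37, and Qsox2, which forms disulfide bonds, by 1.13. No role is given here for 8 genes. Of these Spetex2l2 (1.80 late), Fam222a (−1.08 early and 1.08 late) and Fam149a (1.11 late) differed most, and Ankrd24, Cage1, Tmem117 and the noncoding LOC102550394 had late minus early differences of 1.25 to 1.61. Ankrd13d, with an early difference of −0.50, was the member closest to the threshold. The 3 probe sets nearest outside it were those of Ubl5 (−0.50 early and 0.72 late), Gatc (−0.52 and 0.50) and Sirpa (−0.50 and 0.56).

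The members were picked by the mean of 2 and 4 hr and that of 12 and 24 hr, not by the difference within either pair, so this difference was tested, with limma on all 10 arrays and p adjusted over all 31042 probe sets. Nell2 had the widest step within the early phase, and Deptor the widest fall. Of the 85, 5 were higher at 4 hr (5.88%, against 2.24% of all probe sets) and 2 lower (2.35%, against 1.5%), together 7 (8.24%, against 3.73%). All 7 were past the early threshold at 1 of the 2 times only, whereas none was called of the 60 members past it at both. A member that met the rule through a single time had to differ between the times, so nothing is read from these shares. Nell2 was higher at 4 hr by 2.19 (standard error 0.38, adjusted p = 0.017), which put it back at its starting level. Qpct rose between 2 and 4 hr by 0.87 (standard error 0.12, adjusted p = 0.0073), Dact2 by 0.81 (standard error 0.09, adjusted p = 0.003) and Mllt3 by 0.78 (standard error 0.13, adjusted p = 0.013). Gucy1b1 rose by 1.15 (standard error 0.25, adjusted p = 0.045) on one probe set, while the other differed by 0.86 (standard error 0.33, adjusted p = 0.22). Deptor fell by 1.21 (standard error 0.12, adjusted p = 0.0018) and Nfia by 0.71 (standard error 0.12, adjusted p = 0.013). Taken over the members, 39 were higher and 46 lower at 4 hr, with a median of −0.03 against −0.01 for all probe sets. That median was −0.15 without the first and 0.16 without the second 4 hr array, and the sum of calls went from 7 to 6 and to 12. Calls for Dact2, Qpct and Deptor remained whichever array was left out, whereas that for Gucy1b1 remained in 1 of 10 omissions. With only the 4 arrays of 2 and 4 hr in limma's fit no member was called (0.0387% of all probe sets were higher and 0% lower), and an analysis of variance on these arrays gave 3 higher (3.73% over all probe sets) and 5 lower (3.85%) at an unadjusted P under 0.05.

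Within the late phase Fam149a had the widest rise that passed the test and Col25a1 the widest fall. At 24 hr 13 probe sets of 12 genes were higher than at 12 hr (15.3%, against 2.22% of all probe sets) and 5 of 4 genes lower (5.88%, against 2.12%), together 18 (21.2%, against 4.34%). Of the 13, 6 were past the late threshold at 24 hr only and 7 at both times; of the 5, 3 were past it at 12 hr only and 2 at both. Here too a member could meet the rule through 1 time, and nothing is read from the shares. Pmp22 rose by 1.05 (standard error 0.13, adjusted p = 0.0042), with both 24 hr arrays above both of 12 hr. Mgmt, which at 12 hr read 10.57 and 10.08 against 10.17 and 10.16 at 0 hr, rose by 1.12 (standard error 0.16, adjusted p = 0.0073), so that its late height was that of 24 hr. The same held for Fam149a, with a rise of 1.43 (standard error 0.25, adjusted p = 0.017) on its dimmer probe set; on the other the difference was 1.78 (standard error 0.54, adjusted p = 0.11). Fgfbp3 rose by 0.88 (standard error 0.12, adjusted p = 0.0065), Mpv17l by 0.94 (standard error 0.16, adjusted p = 0.017) and Chst12 by 0.91 (standard error 0.17, adjusted p = 0.023). Apc2 rose on both probe sets, by 0.96 (standard error 0.18, adjusted p = 0.024) and 0.80 (standard error 0.14, adjusted p = 0.017). Slc39a8 rose by 1.11, Spetex2l2 by 0.84, Lrp3 by 0.72 and Dact2 by 0.39, with adjusted p from 0.026 to 0.049, and Ints6l by 1.03 on 1 of its 3 probe sets (adjusted p = 0.02).

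The genes that fell were Col25a1, Reep6, Gstt3 and Mllt3. Col25a1 read 4.45 and 4.89 at 0 hr, 4.29 and 3.81 at 2 hr, 4.40 and 4.08 at 4 hr, 7.03 and 7.04 at 12 hr, and 6.18 and 5.18 at 24 hr. It was far above all earlier arrays at 12 hr and fell by 1.36 (standard error 0.31, adjusted p = 0.046). Reep6 fell by 1.21 (standard error 0.19, adjusted p = 0.011) and 0.58 (standard error 0.11, adjusted p = 0.019) on its 2 probe sets, Gstt3 by 0.85 (standard error 0.13, adjusted p = 0.0091), and Mllt3 by 0.62 (standard error 0.13, adjusted p = 0.031). Gstt3 read 9.07 and 9.10 at 0 hr, 7.70 and 7.82 at 2 hr, 8.08 and 8.42 at 4 hr, 10.41 and 10.41 at 12 hr, and 9.46 and 9.66 at 24 hr, and remained above 0 hr at 24 hr. Cldn10 and S1pr1, with differences of −1.30 and −1.27, and Nell2, with −1.39, did not pass (adjusted p of 0.052, 0.072 and 0.082). Dact2 and Mllt3 were the 2 genes called in both phases, of 21 genes called in either: Dact2 was higher at the later time in both, and Mllt3 higher at 4 hr and lower at 24 hr.

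Over all members 52 were higher and 33 lower at 24 hr, with a median of 0.15 against 0.00 for all probe sets, and 0.09 to 0.20 without any 1 array. The number of late calls changed when 1 array was left out, which leaves a single array at its time and so less precision. Higher and lower calls were 2 and 0 without either 12 hr array, 3 and 4 without the first and 6 and 1 without the second 24 hr array, 9 and 3 without either 0 hr array, and 18 and 8 without either 2 hr array. Pmp22 passed in all 10 omissions, Fgfbp3 in 9 and Mgmt in 8, but Lrp3 and Slc39a8 in 2 and Dact2 in none. Combining both phases, 31 members had their lower early time at 4 hr and their higher late time at 24 hr, 21 were lower at 2 hr and higher at 24 hr, 18 lower at 2 hr and higher at 12 hr, and 15 lower at 4 hr and higher at 12 hr; only the steps called above passed a test.

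**Figure D5:**
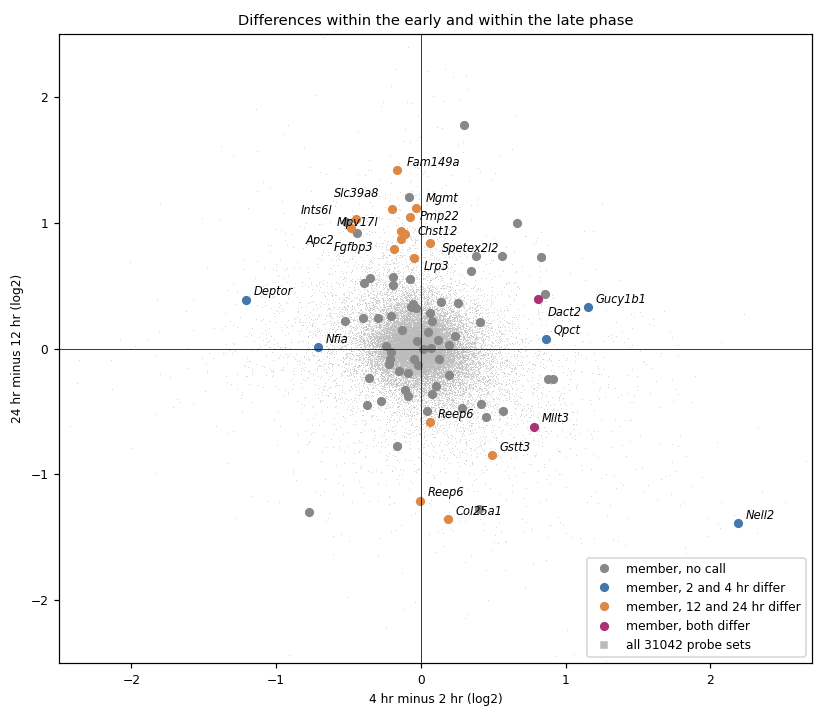
Each point is a probe set, with its mean at 4 hr minus 2 hr on the x axis and at 24 hr minus 12 hr on the y axis, both log2; coloured members passed limma's test at an adjusted p under 0.05 and are named (1 of the 2 points of Apc2 has no name). Calls within the late phase lie mostly above the horizontal line, 13 against 5, and Nell2 has the largest step of the members between 2 and 4 hr; 16 probe sets that are not members lie beyond the axes.

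Other probe sets of the same genes give a second reading of the same RNA. Of the 73 genes 33 have 1 probe set, and the other 40 have 96, of which 52 are members; in 10 genes every probe set is a member. The 44 that are not members could not meet both thresholds, and their median differences were −0.13 early and 0.46 late. Below 0 hr early and above it late were 31 of them (70.5%, against 22.5% of all probe sets with 1 symbol), and without the dimmest probe sets (the lowest 0.333 by mean level) 24 of 36 (66.7%, against 21.8%). Of the 44, 10 stood above 0 hr early and 3 below it late. The brighter probe set of Pmp22 stood at −0.28 and 1.01, that of Comtd1 at −0.25 and 1.34, and the second probe set of Atp1b1 at −0.27 and 2.10. Other genes disagreed. Itga6 had a brighter probe set at 0.42 early and 1.59 late. That of Stt3a was nearly flat, at −0.06 and 0.24. Hnrnpa1 had brighter ones at −0.12 and −0.35, and at 0.52 and 0.44, and Mphosph8 at −0.43 and −0.33, and at −0.76 and −0.27. The other probe sets of Nfia stood at 0.10 and 0.29, and at −0.01 and 0.26, and that of Pdk1 at 0.27 and 0.84. Those of Adam23, both dimmer, stood at 0.06 and 0.73, and at −0.06 and 0.65. Nolc1 had brighter ones at −0.05 and 0.42, and at 0.04 and 0.56, and a dimmer one at −0.07 and 0.01. Mllt3 had a dimmer one at 0.05 and 0.57, and a brighter one at −0.21 and 0.50. The dimmer one of S1pr1 stood at 0.09 and 0.06. Msi2 had a brighter probe set at −0.11 and 0.80, and dimmer ones at 0.04 and 0.69, and at 0.19 and 0.87. The brighter probe set of Slc25a32 stood at −0.12 and 0.46, and that of Fam98a at −0.15 and 0.44. On the mean of all probe sets of a gene, 47 of the 73 genes met the rule, of which 14 were among the 40 with several. Whether the probe sets of a gene read different transcripts was not tested.

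The pathways around the members were read from 26 gene lists, and 22 member genes were in 15 of them. These were 1.83% of the 1205 listed genes on the array, against 0.513% of all genes on the array. The lists were chosen with earlier results of these data known, so nothing is read from these shares. For the genes that are not members the early and late phases were tested against 0 hr with limma (1 probe set per gene, the brightest); over all probe sets 12.3% were called above and 12.9% below 0 hr early, and 10.8% above and 12.3% below late. Beside Hey1, the Notch list had 29 other genes, of which 4 were above and 3 below early, and 8 above and 3 below late. Its late genes included the ligand Jag1 (1.65 late, −0.18 early), the feedback gene Nrarp (1.21 late, 0.75 early) and the relatives of Hey1, Heyl (0.88 and 0.41) and Hey2 (0.70 and 0.22), none of them called below 0 hr early. Beside Id2, the list of BMP, TGF-beta and activin had 38, with 10 above and 9 below early, and 8 above and 12 below late; Id1, Id3 and Id4 were above 0 hr late, at 1.36, 1.08 and 1.48, and stood at 0.53, 0.02 and 0.62 early. Among 27 other genes of ion and water transport, 5 were above and 2 below early, and 4 above and 4 below late. There the sodium pump subunit Atp1b2 was above 0 hr late at 2.16 (0.30 early), and Atp1b3 was below at −0.44 (−0.15 early).

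Junctions gave 4 members, Itga6, Cldn10, Cgnl1 and Pmp22, beside 61 other genes. Of these 10 were above and 7 below early, and 14 above and 16 below late. Igfbp3 was the member among insulin-like growth factor and receptor genes, whose other 49 were above in 10 and below in 3 cases early, and above in 9 and below in 3 late. There Igfbp2 and Igfbp4 stood at 0.61 and 0.43 late, and Igfbp5 was below at −5.10. Hypoxia and glycolysis, with Pdk1 and Slc16a3 as members, had 36 others, of which 9 were above and 6 below late, and 4 in each direction early. The p53 and FoxO list, with Phlda3, had 32 others. Of these 4 were above and 16 below early, and 2 above and 14 below late. The FGF and ERK list, with Map3k1, had 34 others. Of those 9 were above and 5 below early, and 13 above and 4 below late. RNA processing, with Rbm24 and Msi2, had 45 others, of which 2 were above and 10 below late. The list of G protein coupled receptors and phosphodiesterases held S1pr1, P2ry6 and the cyclase gene Gucy1b1. Its 69 others were above in 14 and below in 13 cases late. In the lists that hold a member, 2 other genes were called below 0 hr early and above it late: the integrin gene Itga1 (−0.41 and 0.60) and the neuronal gene Nsg2 (−0.45 and 1.65), both of them short of the early threshold and named after their values were seen. The other 11 lists, with 21 to 85 genes on the array and that of lens fiber structural genes among them, held no member; since members are 0.513% of the genes on the array, nothing is read from this.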

How the data were processed

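The authors hybridised amplified RNA of biological duplicates to Affymetrix rat arrays (per the series annotation; their text names another array type, and another RNA kit than the labels) and deposited robust multichip average (RMA) intensity values on a linear scale, 1 table of 10 arrays with median intensities of 98.0 to 100.2. These deposited intensities were converted to log2. The build behind the probe sets is not given in the sources used here. Symbols came from the platform annotation, and all 73 member genes matched RefSeq by gene ID.

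Steps within a phase were tested with limma 3.58.1 in R 4.3.3: 5 time means, all 10 arrays, empirical Bayes variance (5 residual and 3.69 prior degrees of freedom) and Benjamini-Hochberg adjustment at 0.05 over 31042 probe sets. The fit was tested on simulated data. The number of arrays, 2 per time, limits the precision, and p-values measure only the spread between these samples. The members, gene lists and role groups were chosen with earlier results of these data known. Genes were named where they ranked in the top 15 by late minus early difference or the top 10 by early or late difference, were in a list, differed within a phase, or lay nearest the threshold; the other member genes were added after their values were seen. Alternatives were other normalization, centring, thresholds, filters, fits and a replicate block. Array quality weights were chosen after seeing the data.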

Additional observations from a re-analysis of the deposited data

How the results depend on the processing

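Under quantile normalization 92 probe sets met the rule, of which 83 were shared with the 85, and under median centring 84 (80 shared). A threshold of 0.4 gave 167, and 0.7 gave 32. With every array past the threshold there were 11. On gene means 47 genes met the rule. Without 1 array the number was 79 to 102.

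The numbers of members higher and lower at 4 hr were 5 and 2. They became 15 and 10 at an unadjusted p (8.57% and 8.5% over all probe sets), 0 and 0 with only the arrays of the contrast, and 3 and 1 with array quality weights (0.883% and 0.557%). An analysis of variance on only the arrays of 2 and 4 hr gave 3 and 5 unadjusted (3.73% and 3.85%), and 0 and 0 after adjustment. Leaving out 1 array gave 4 to 9 and 1 to 3, and the median step ran from −0.15 to 0.16. At 24 hr 13 and 5 members were higher and lower. They became 28 and 11 at an unadjusted p (8.91% in each direction over all probe sets), 20 and 7 with only the arrays of the contrast (3.04% and 3.14%), and 23 and 9 with array quality weights (4.62% and 4.61%). An analysis of variance on only the arrays of 12 and 24 hr gave 17 and 10 unadjusted (7.68% and 6.97%), and 0 and 0 after adjustment. Leaving out 1 array gave 2 to 18 and 0 to 8, with a median step of 0.09 to 0.20. The cause of these changes was not tested.

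The replicate number as a block left 4 and 2 calls at 4 hr, and 11 and 5 at 24 hr. Samples with the same number deviated together at 2 and 4 hr (r = 0.33, across probe sets). The other 9 pairs of times had r from −0.15 to 0.00. Whether the numbers pair the samples of 2 and 4 hr is not stated, and the main fit held no block.

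No direction of a called step turned under any alternative run. Late minus early differences of the 73 genes moved by more than the spread between replicates in 40 of 876 recomputed values, and 137 of 499 recomputed steps kept their direction but missed the threshold. Dim signal limits members such as Col25a1 and the dimmer probe set of Reep6, whose 0 hr values lie below the median probe set. Against the promoters of genes on the array in place of all promoters, the members' excess of the Sp motif went from 29.4 to 6.77 percentage points, that of the Ets motif from −3.12 to −12.7 and that of TATAAA from −12.5 to −6.67; the other 9 motifs moved by less than their counting error.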

Other observations

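Another 26 probe sets without a gene symbol, or with several, met both thresholds of the rule. They are not members and are not described further.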
